A study of Mus musculus with 45 samples.

Results

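Genes of cholesterol and fatty acid synthesis were followed by RNA-seq in male mouse embryonic stem cells (ESCs) as they left self-renewal in media with or without serum. The 30 genes were taken by symbol from the 34937 genes named in the count files, and every symbol was found in all 45 libraries. They comprise 8 genes of the mevalonate and isoprenoid steps, 11 genes of the steps from squalene to cholesterol, 4 genes of regulation and sterol transport, and 7 genes of fatty acid synthesis. The rule is a list of symbols, drawn up with earlier results of these data known.

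Animal cells obtain sterols and fatty acids either from outside, chiefly from the lipoproteins of blood or serum, or by building them from acetyl-CoA. The choice is set largely by the SREBP transcription factors, which are made as precursors in the membrane of the endoplasmic reticulum and are encoded by Srebf1 and Srebf2. When membrane sterols are scarce, the escort protein encoded by Scap carries the precursor to the Golgi, where proteases free the active factor, and transcription of the synthesis genes rises. When sterols are plentiful, the Insig1 and Insig2 proteins hold the escort and its cargo back. The factor from Srebf2 acts mainly on cholesterol genes and the one from Srebf1 mainly on fatty acid genes. They bind short sterol regulatory elements, commonly beside a CCAAT box that binds NF-Y.

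The cells were wild-type E14tg2a ESCs of 129/Ola background, called XY1, and were the sole line used here. They were kept either in 2iL, which is the serum-free medium N2B27 with CHIR99021, PD0325901 and LIF, or in SL, which is GMEM with fetal bovine serum and LIF. Per the study, the line was derived in SL and had at most 3 passages in 2iL ahead of differentiation. Cells from each medium were then differentiated along 3 routes and sampled at days 1, 1.5, 2, 2.5, 3, 5 and 7. Embryoid bodies (EB) grew as suspended aggregates in serum medium without LIF. In the FA condition, labelled as epiblast stem cells, adherent cells were given N2B27 with Fgf2 and Activin A, and in the N2B27 condition, labelled as neural, adherent cells were given N2B27 alone.

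Each combination of starting medium, route and day was represented by 1 library, so days 1 to 7 held 14 EB and 27 serum-free libraries from 6 time courses, and day 0 held 3 libraries of 2iL and 1 of SL. The exception was FA at day 5 from 2iL, for which the 45 libraries analysed here held none. Serum, suspension growth and the remainder of the medium changed together between EB and the adherent routes and cannot be told apart. At day 0, 2iL and SL differed in serum, base medium and the inhibitors CHIR99021 and PD0325901 together. From day 0 to day 1, LIF was withdrawn along every route, and the inhibitors along those from 2iL. Serum and serum-free thus name the whole change of culture. The labels do not say whether the libraries of a course came from separate cultures, so p-values measured the spread between libraries and not between independently repeated experiments. In bulk RNA, fewer cells of a type and less RNA per cell cannot be told apart.

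Library totals lay between 13093084 and 39803924 counts, and the lowest count of any of the 30 genes in any library was 187. The EB libraries from 2iL were the deepest course, at 31054864 to 39803924 counts, and 1 of the 37 other libraries exceeded the lowest of them. Summed markers of naive stem cells stood at 4025 to 4277 CPM (counts scaled to a library total of 1000000) in the 2iL libraries of day 0, at 2339 CPM in the SL library and at 46.7 to 302 CPM at days 5 and 7. Summed neural markers at days 5 and 7 were 190 to 639 CPM in the serum-free libraries and 109 to 281 CPM in EB. The 5 mesendoderm markers summed to 146 to 734 CPM in EB on those days and to 3.73 to 83.0 CPM in the serum-free libraries.

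Promoter sequence was read for the genes with a RefSeq window in the GRCm38.p6 assembly, reaching from 250 bases before to 50 bases after the transcription start. Such windows were found for 24 of the 30 genes, all except Sqle, Fdps, Fdft1, Stard4, Scd1 and Scd2. The letters TCACNCCAC, a form of the sterol regulatory element, were searched on both strands and occurred at 1.44% of all 27025 genes and at 1 of the 24, Hmgcs1. The CCAAT box was present on either strand at 41.1% of all genes and at 21 of the 24, or 87.5%, with Acaca, Acat2 and Elovl6 as the exceptions. The E-box CACGTG, whose first 3 letters can be the last 3 of the sterol element, occurred at 8.09% of all genes and at 4 of the 24, or 16.7%, namely Dhcr7, Hsd17b7, Insig1 and Sc5d. These matches are a description of the letters in the window, and the missing matches say nothing of binding elsewhere.

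Promoter stretches are shown for 5 genes picked after their values were known, because they span the roles and include the gene that was not lower in EB. All lie upstream of the start of the gene in both annotations used, written 5′ to 3′ on the strand of the gene. The Hmgcs1 element is at chr13:119690184-119690252 on the plus strand and begins 137 bases before the start, with the element in capitals. The other lines have the CCAAT box in capitals, which reads ATTGG where it lies on the opposite strand. They are Hmgcs1 at chr13:119690278-119690337 (plus), Nsdhl at chrX:72918461-72918520 (plus), Insig1 at chr5:28071168-28071227 (plus), Fasn at chr11:120824575-120824634 (minus) and Ggps1 at chr13:14063512-14063571 (minus).
Hmgcs1 element: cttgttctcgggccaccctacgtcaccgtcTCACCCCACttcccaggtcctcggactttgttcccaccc
Hmgcs1: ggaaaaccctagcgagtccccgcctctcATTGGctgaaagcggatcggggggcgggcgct
Nsdhl: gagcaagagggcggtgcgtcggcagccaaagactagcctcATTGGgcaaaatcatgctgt
Insig1: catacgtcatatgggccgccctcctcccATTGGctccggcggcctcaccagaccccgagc
Fasn: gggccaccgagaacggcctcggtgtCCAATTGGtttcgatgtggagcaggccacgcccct
Ggps1: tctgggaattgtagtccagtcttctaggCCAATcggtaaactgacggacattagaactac
In Fasn, CCAAT on the plus reading and ATTGG overlap, which gives 2 matches in 8 letters. Hmgcs1, Fasn and Ggps1 each had 3 CCAAT matches upstream of the start, Nsdhl had 2 and Insig1 had 1.

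The main comparison set EB against the mean of FA and N2B27 from the same starting medium and day, over days 1 to 7. All but 1 of the 30 genes were lower in EB and none was higher. The count was 29 lower by edgeR's quasi-likelihood test at a Benjamini-Hochberg adjusted p below 0.05, where 24.3% of the 16457 genes tested were lower and 24.9% were higher. The count of higher genes was 0 also at an unadjusted p below 0.05 and by DESeq2. The median log2 difference of the 30 genes was -0.70, beside -0.01 for all genes tested. When library totals replaced TMM scaling, 19.3% of all genes were lower and 30.4% higher, and 29 of the 30 genes were again lower.

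Summed over the 30 genes, the EB libraries ranged from 3744 to 5680 CPM with a median of 4729. The FA libraries ranged from 7132 to 11241 CPM and the N2B27 libraries from 6548 to 9728 CPM. The EB range thus lay wholly below both serum-free ranges. By role, only the fatty acid genes kept this gap, with a highest EB sum of 3161 CPM and a lowest serum-free sum of 3919. These sums were 1164 and 1137 CPM for mevalonate genes. They were 985 and 954 CPM from squalene to cholesterol and 500 and 466 CPM for regulators, so these ranges overlapped. Scd2 alone had a median of 659 CPM in EB and 2202 CPM in the serum-free libraries. The day 0 libraries summed to 6678 to 6854 CPM in 2iL and to 2663 CPM in SL, which was below every other library. Fatty acid genes held 4679 to 4756 CPM of the 2iL sums and 1390 CPM of the SL sum.

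**Figure D1:**
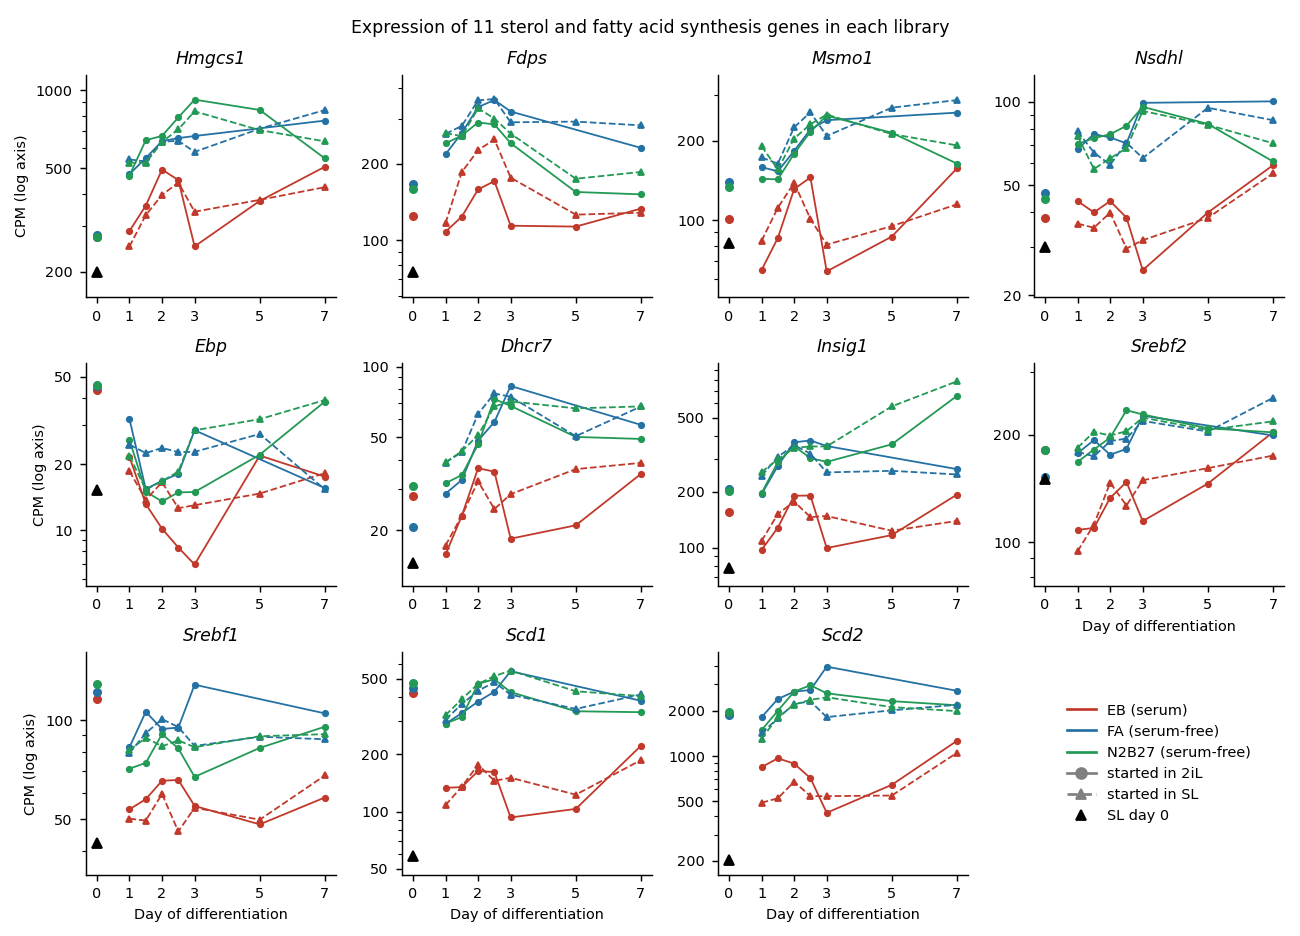
CPM (log axis) against day of differentiation for 11 of the 30 genes. Each point is 1 library, colours mark EB, FA and N2B27, circles with solid lines mark courses from 2iL, triangles with dashed lines courses from SL, and the black triangle the SL library of day 0. The EB points of Scd1, Scd2 and Insig1 lie below all serum-free points of days 1 to 7.

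In the 14 sets formed by starting medium and day, the EB library was the lowest in all 14 sets for 18 of the 30 genes, against 1.17% of the 13744 genes with a mean of at least 1 CPM. It was the lowest in at least 12 sets for 27 genes, a count for which the share over all genes was not computed. The median gene of the 30 had EB lowest in 14 sets and the median of all genes in 4. For Acat2, Insig1, Scd1 and Scd2 every EB library lay below every serum-free library of days 1 to 7, which held for 11 of the 13744 genes, or 0.0800%.

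The 2 stearoyl-CoA desaturases, which place the double bond that makes oleate and palmitoleate from saturated fatty acids, had the widest gap. Scd2 stood at a lowest of 419, a median of 659 and a highest of 1263 CPM in EB, and at 1306, 2202 and 3939 CPM in the serum-free libraries. Scd1 stood at 93.2, 140 and 222 CPM in EB and at 289, 404 and 551 CPM in the serum-free libraries. For neither gene did the groups overlap. Scd2 was 3.24-fold lower in EB (log2 difference -1.69 ± 0.118 SE, adjusted p = 1.64e-11) and Scd1 was 2.84-fold lower (-1.50 ± 0.0855, adjusted p = 3.33e-13). Scd1 and Scd2 are close paralogs that lie near each other on chromosome 19 of GRCm38, at 44394455 to 44407879 on the minus strand and at 44293674 to 44306864 on the plus strand. Reads that fit both could have been split or dropped by the counting, so the share of each is uncertain, and the same holds for Acat2, Idi1 and Fdps, which have near copies in the genome.

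The other 5 genes of fatty acid synthesis were also lower, within a narrower band. Their log2 differences were -0.57 for Elovl6, which elongates palmitate, -0.49 for Acsl3, which activates fatty acids, -0.49 for Fasn, the fatty acid synthase, -0.49 for Acaca, the carboxylase that makes malonyl-CoA, and -0.47 for Acly, which makes cytosolic acetyl-CoA. Fasn ranged from 506 to 986 CPM in EB and from 620 to 1404 CPM in the serum-free libraries. These ranges overlapped broadly, yet the EB library was the lowest of its medium and day in 13 of 14 sets. When each time course was summed to 1 library, these 5 genes missed the threshold, with adjusted p from 0.0522 (Elovl6) to 0.0848 (Acaca).

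Of the 8 genes of the mevalonate and isoprenoid steps, 7 were lower and the median log2 difference was -0.72. Hmgcs1, the cytosolic synthase that feeds the pathway, stood at a lowest of 250, a median of 377 and a highest of 508 CPM in EB, and at 470, 639 and 922 CPM in the serum-free libraries. Fdps, which makes farnesyl diphosphate, stood at 108, 131 and 250 CPM in EB and at 152, 265 and 361 CPM in the serum-free libraries. The ranges overlapped for both genes, less so for Hmgcs1, and within each set of medium and day the EB library was the lowest in all 14. Hmgcs1 was 1.81-fold lower (log2 difference -0.86 ± 0.0774, adjusted p = 1.62e-09) and Fdps 1.84-fold lower (-0.88 ± 0.0724, adjusted p = 3.76e-10).

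The remaining mevalonate genes gave log2 differences of -0.81 for Acat2, the thiolase at the entry, -0.76 for Mvk and -0.68 for Pmvk, the kinases, -0.58 for Mvd, the decarboxylase, and -0.44 for Idi1, the isomerase. Ggps1, which makes the geranylgeranyl diphosphate used to prenylate proteins and so stands off the route to sterols, was the exception. It stood at 25.9 to 37.5 CPM in EB and at 22.5 to 39.2 CPM in the serum-free libraries. Its log2 difference was 0.05 ± 0.0383 with an adjusted p of 0.293, and EB was the lowest in 1 of 14 sets. Its sign turned with the serum-free route used: -0.05 (adjusted p = 0.393) against FA alone and 0.15 (adjusted p = 0.00561) against N2B27 alone.

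All 11 genes from squalene to cholesterol were lower in EB, with a median log2 difference of -0.80. Msmo1, a C4-methylsterol oxidase, stood at a lowest of 64.0, a median of 98.2 and a highest of 157 CPM in EB, and at 143, 209 and 286 CPM in the serum-free libraries. Nsdhl, the next enzyme in removing the C4 methyl groups, stood at 24.7, 39.0 and 59.1 CPM in EB and at 57.2, 74.4 and 100 CPM in the serum-free libraries. Dhcr7, which performs a last reduction to cholesterol, stood at 15.8, 26.6 and 38.8 CPM in EB and at 28.7, 51.0 and 82.7 CPM in the serum-free libraries. In all 3 genes the highest EB library passed the lowest serum-free one, and in all 14 sets of medium and day EB was the lowest. The log2 differences were -1.04 ± 0.0956 for Msmo1 (adjusted p = 2.2e-09), -1.0 ± 0.0895 for Nsdhl (adjusted p = 1.35e-09) and -1.02 ± 0.0906 for Dhcr7 (adjusted p = 1.31e-09).

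Ebp, a sterol isomerase, had the widest standard error of the 30 genes, with a log2 difference of -0.67 ± 0.1307 (adjusted p = 0.000114). It stood at 6.98 to 21.9 CPM in EB and at 13.5 to 39.2 CPM in the serum-free libraries, after 43.7, 45.2 and 46.1 CPM in the 2iL libraries of day 0. Ebp and Nsdhl are the 2 genes of the group on the X chromosome, and the cells were male. The other 7 genes of these steps ran from -0.97 (Hsd17b7, a ketosteroid reductase of the C4 demethylation) and -0.95 (Lss, the cyclase that makes lanosterol) to -0.52 (Tm7sf2, a sterol reductase). Between them lay Sc5d (-0.80), Cyp51 (-0.77), Fdft1 (-0.64) and Sqle (-0.60), which encode a desaturase, the lanosterol demethylase, squalene synthase and squalene epoxidase. Summing each course to 1 library left Tm7sf2 at an adjusted p of 0.0954.

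The regulators moved with the enzymes. Insig1, whose protein retains the SREBP precursor and whose own transcription is driven by it, stood at a lowest of 97.4, a median of 143 and a highest of 193 CPM in EB, and at 194, 308 and 787 CPM in the serum-free libraries. The groups did not overlap, though the highest EB library and the lowest serum-free library were nearly equal. Insig1 was 2.41-fold lower (log2 difference -1.27 ± 0.1155, adjusted p = 2e-09).

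Srebf1 stood at 46.0, 54.6 and 68.0 CPM in EB and at 67.3, 88.5 and 128 CPM in the serum-free libraries (log2 difference -0.72 ± 0.0546, adjusted p = 6.75e-11). Srebf2 stood at 94.3, 139 and 203 CPM in EB and at 168, 199 and 254 CPM in the serum-free libraries (-0.62 ± 0.0572, adjusted p = 2.2e-09). The Srebf1 ranges touched at their edge and the Srebf2 ranges overlapped more, with EB the lowest of Srebf2 in 13 of 14 sets. Stard4, which carries sterols between membranes, had a log2 difference of -0.46 ± 0.0627 (adjusted p = 1.14e-06).

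**Figure D2:**
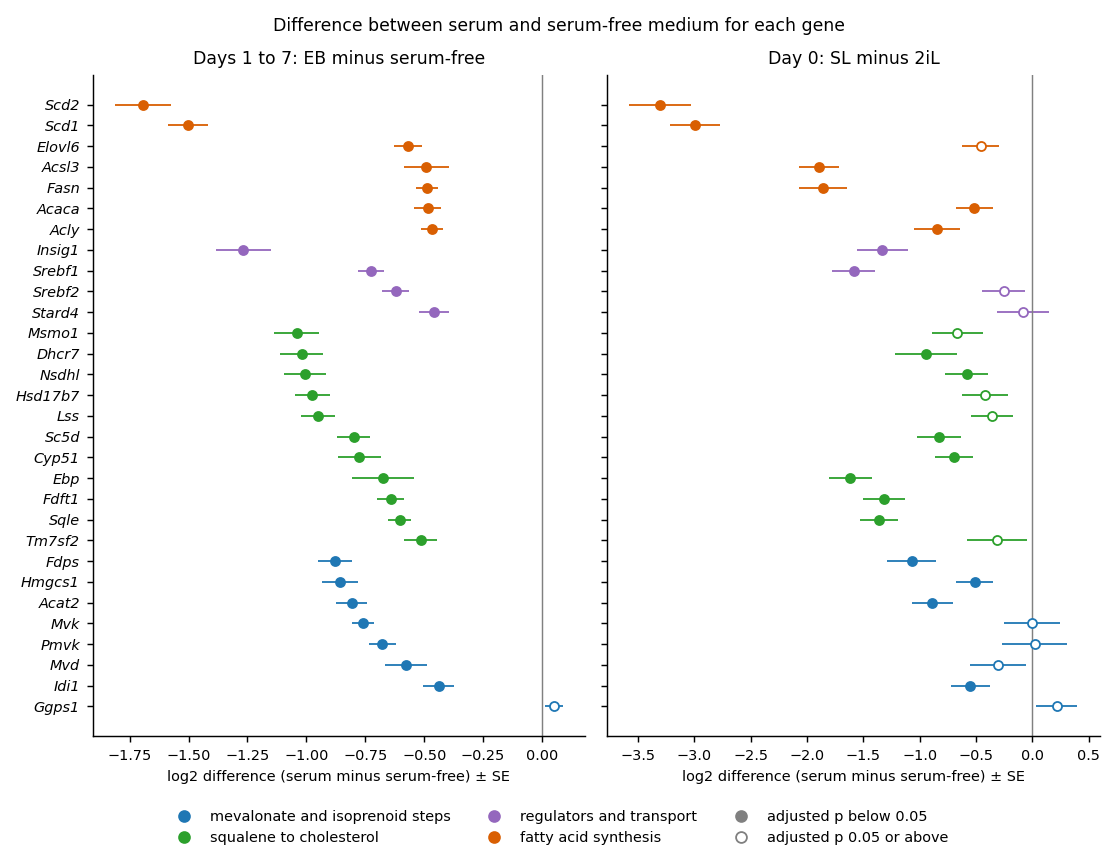
Log2 difference of EB from the mean of FA and N2B27 over days 1 to 7 (left) and of SL from 2iL at day 0 (right, so with the sign opposite to that of the text) for the 30 genes, coloured by role. Points are fitted values, bars 1 standard error and open points an adjusted p of 0.05 or above. On the left the values run from -1.69 for Scd2 to 0.05 for Ggps1.

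Divided by exon length, the levels spanned a wide range within the group. In the serum-free libraries the median level was 403 CPM per kb for Scd2, 141 for Acly, 139 for Hmgcs1, 99.7 for Insig1 and 90.3 for Fasn. At the other end it was 3.99 CPM per kb for Tm7sf2, 5.77 for Hsd17b7 and 5.84 for Ggps1. In EB the median level was 121 CPM per kb for Scd2, 108 for Acly and 67.9 for Fasn, so Scd2 stood close to Acly in EB and well above it in the serum-free libraries.

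With each time course summed over the 6 days that all courses shared, the same contrast rested on 6 libraries. In this form, chosen after the data were seen, 23 of the 30 genes were lower and the median log2 difference was -0.66, where 2.83% of 17697 genes were lower. The 7 genes that missed the threshold were Ggps1, Tm7sf2, Acly, Acaca, Fasn, Elovl6 and Acsl3.

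Taken day by day, the genes were already lower in EB at day 1. At day 1, 19 of the 30 genes were lower (1.01% of all genes tested), followed by 21 at day 1.5 (2.84%), by 18 at day 2 (4.24%) and by 20 at day 2.5 (4.12%). The count reached 29 by day 3 (8.22%), stood at 26 on day 5 (10.2%) and at 16 on day 7 (5.30%). None was higher on any day (0 also at an unadjusted p below 0.05 and by DESeq2), where 0.808%, 2.95%, 5.52%, 4.92%, 9.02%, 9.03% and 3.85% of all genes were higher on the 7 days in turn. The median log2 difference over the 30 genes was -0.78 on day 1, -0.53 on day 2, -1.0 on day 3, -0.88 on day 5 and -0.60 on day 7. Each of these fits compared at most 6 libraries, with the spread shared across all days.

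The 12 genes that were lower on every day were Acat2, Hmgcs1, Fdps, Fdft1, Sqle, Lss, Msmo1, Sc5d, Dhcr7, Srebf1, Scd1 and Scd2. The share of all genes tested that was lower on every day was not computed. It cannot exceed the 1.01% that were lower on day 1. Ggps1 was lower on none. The widest difference fell on day 3 for 16 genes and on day 5 for 9. Scd2 had a log2 difference of -1.20 ± 0.186 on day 1, -2.46 ± 0.201 on day 3 and -1.01 ± 0.1837 on day 7. Nsdhl went from -0.85 ± 0.1708 at day 1 through -1.64 ± 0.1789 at day 3 to -0.51 ± 0.1672 at day 7, where it missed the threshold (adjusted p = 0.0556).

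At day 3 the EB library of the 2iL course was low for many of the genes. It held 419 CPM of Scd2 against 713 CPM at day 2.5 and 643 CPM at day 5 of the same course, and the EB library of the SL course held 541 CPM at both day 2.5 and day 3. For Hmgcs1 it held 250 CPM, after 451 CPM at day 2.5 and before 375 CPM at day 5. For Nsdhl it held 24.7 CPM and for Ebp 6.98 CPM, the lowest value of each gene in EB. Without the whole EB course from 2iL, the median log2 difference of the 30 genes at day 3 was -0.75. Without the EB course from SL, the median was -1.21. On the other days as well, leaving out an EB course left 1 serum library a day. Fewer genes then passed the test on each day, among the 30 and over all genes alike. Without the EB course from 2iL, the medians on days 1, 1.5, 2, 2.5, 5 and 7 were -0.92, -0.69, -0.59, -0.78, -0.97 and -0.68. Without the one from SL, they were -0.67, -0.62, -0.55, -0.69, -0.89 and -0.43 on those days. Leaving out the N2B27 course from SL left 9, 11, 7 and 7 lower genes on days 1, 1.5, 2 and 7. Over all 16324 genes tested, 55, 153, 259 and 266 were then lower. Leaving out the N2B27 course from 2iL left 12 and 10 lower genes on days 1.5 and 2, beside 247 and 361 of 16836 genes tested.

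**Figure D3:**
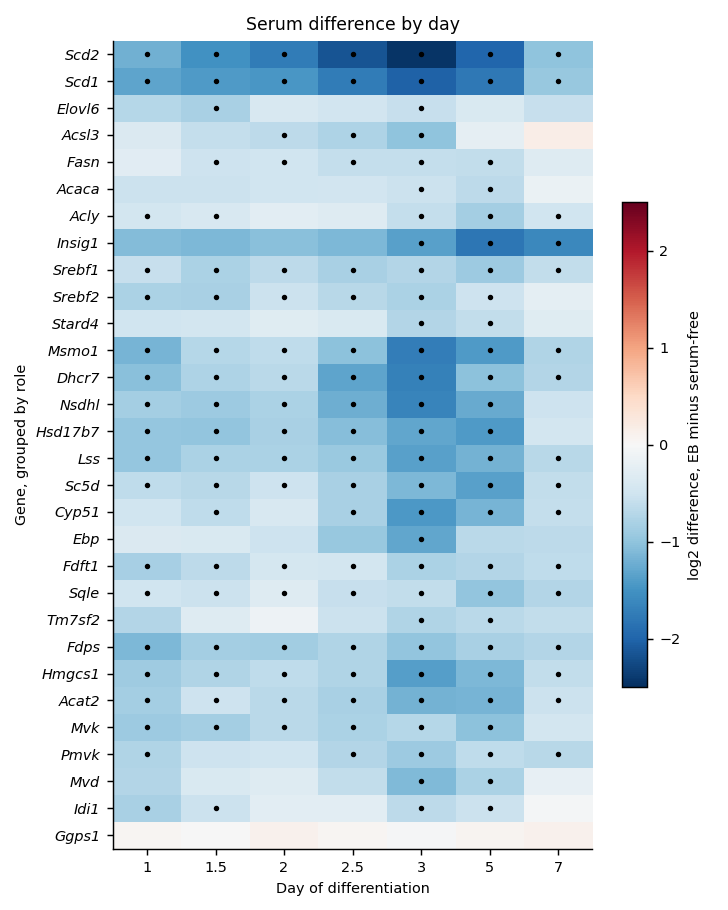
Log2 difference of EB from the serum-free libraries (colour scale) for the 30 genes (rows, grouped by role) on each day of differentiation (columns), with a dot where the adjusted p was below 0.05. Blue is lower in EB, and the darkest cell is Scd2 at day 3, at -2.46.

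Between days 5 and 7 and days 1 to 2, the EB difference itself changed for 1 gene, Sqle, which fell further by 0.40 on the log2 scale (log2 difference -0.40 ± 0.0895, adjusted p = 0.00485), a call that was lost without the EB course from 2iL. Over all genes the late difference was lower for 7.30% and higher for 5.24%. Acsl3 leaned the other way without passing the test (0.51 ± 0.1904, adjusted p = 0.0778). In the 2iL course its EB libraries rose from 104.6 CPM at day 1 to 220 CPM at day 5 and 299 CPM at day 7, while the N2B27 libraries stood at 108, 183 and 140 CPM on those days. At day 7 the log2 difference of Acsl3 was 0.17 ± 0.2031.

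The EB gap over days 1 to 2 was present from both starting media. From 2iL, 29 of the 30 genes were lower in EB (16.4% of all genes tested), and from SL 28 were lower (12.2%), all but Tm7sf2 and Ggps1. By a test of the difference itself, the gaps differed for 1 gene, Cyp51, at 0.50 ± 0.1117 on the log2 scale (adjusted p = 0.0262), where 1.95% of all genes had a higher and 1.45% a lower value from 2iL. The call of Cyp51 was lost with library totals, without the N2B27 course from 2iL and without the FA course from SL. Its EB gap was -0.26 ± 0.0796 from 2iL and -0.76 ± 0.0816 from SL. At day 2 the Cyp51 libraries of the 2iL courses stood at 218 CPM in EB, 246 in FA and 204 in N2B27, so EB lay between the serum-free routes, and those of the SL courses at 173, 294 and 236 CPM. Scd1 had a gap of -1.31 ± 0.1108 from 2iL and -1.48 ± 0.1121 from SL, and Insig1 of -1.08 ± 0.0723 and -1.08 ± 0.0725.

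Differences between the serum-free routes were small, from -0.43 to 0.23 on the log2 scale. Between FA and N2B27, 4 of the 30 genes were higher in FA and 3 were lower, where 14.9% of all genes tested were higher and 14.8% lower, and the median log2 difference was -0.04. The genes higher in FA were Acaca (0.23 ± 0.0643), Elovl6 (0.20 ± 0.0698), Ggps1 (0.20 ± 0.0454) and Pmvk (0.19 ± 0.0659). With library totals in place of TMM, 8 genes were higher and 1 was lower, beside 25.6% and 9.01% of all genes, so the split between the directions depended on the scaling. Insig1 (-0.43 ± 0.1304, adjusted p = 0.0136), Mvk (-0.26 ± 0.0551) and Tm7sf2 (-0.25 ± 0.0806) were lower in FA under TMM. Insig1 parted late: its N2B27 libraries reached 657 and 787 CPM at day 7 from 2iL and from SL, and its FA libraries stood at 265 and 248 CPM.

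At day 0 the self-renewing cells themselves differed. Of the 30 genes 19 were higher in 2iL than in SL and none was lower, where 13.5% of all genes tested were higher and 17.3% lower, and the median log2 difference was 0.68. The count of lower genes was 0 also at an unadjusted p below 0.05 and by DESeq2. Scd2 stood at 1891, 1917 and 1958 CPM in the 2iL libraries and at 203 CPM in the SL library, a 9.87-fold difference. Scd1 stood at 418, 448 and 471 CPM in 2iL and at 58.4 CPM in SL, a 7.97-fold difference. Fasn stood at 797, 895 and 928 CPM in 2iL and at 251 CPM in SL. In all 3 genes the SL library lay below each 2iL library, and below every EB library of days 1 to 7 as well.

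By role, 6 of 7 fatty acid genes, 7 of 11 genes from squalene to cholesterol, 4 of 8 mevalonate genes and 2 of 4 regulators were higher in 2iL. The log2 difference was 1.89 for Acsl3, 1.62 for Ebp, 1.58 for Srebf1, 1.36 for Sqle, 1.33 for Insig1 and 1.32 for Fdft1. It was 0.00 for Mvk, -0.02 for Pmvk and -0.22 for Ggps1, none of which passed the test. The comparison rested on the single SL library, whose spread was taken to be that of the 2iL libraries. Markers of visceral and primitive endoderm summed to 431 CPM in that library and to 3.26 to 5.41 CPM in the 2iL libraries, and their part in the differences of day 0 was not tested.

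From day 0 to day 1 the median of the 30 genes went down in cells that entered serum from 2iL and up along the other paths. The roles differed. From 2iL into serum the median log2 change was -0.09 for mevalonate genes and -0.56 for fatty acid genes. From 2iL into the serum-free routes it was 0.48 for mevalonate genes and -0.26 for fatty acid genes. The sum of the 30 genes went from 6678 to 6854 CPM in 2iL to 7132 CPM in FA and 6548 CPM in N2B27. LIF was withdrawn along every path, and the inhibitors along those from 2iL, so no change can be laid to serum alone. Cells that went from 2iL into serum had 14 of the 30 genes fall (10.3% of all genes tested) with a median log2 change of -0.54. Cells that went from 2iL into the serum-free routes had 8 genes rise (10.8%) and 4 fall (11.2%), with a median of 0.24. Cells that stayed in serum from SL had 6 genes rise (2.82%) with a median of 0.38, and cells that went from SL into the serum-free routes had 23 rise (5.47%) with a median of 1.29.

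The genes that fell on entry into serum from 2iL were led by Scd1 (-1.79 ± 0.2269), Scd2 (-1.23 ± 0.1894) and Srebf1 (-1.23 ± 0.2136). Scd1 went from 418, 448 and 471 CPM at day 0 to 133 CPM in EB and to 289 and 290 CPM in FA and N2B27 at day 1. It therefore fell along each route from 2iL, and furthest in the library with serum. The 8 genes that rose from 2iL into the serum-free routes were all of the cholesterol branch: Hmgcs1, Mvk, Idi1, Fdps, Sqle, Lss, Cyp51 and Nsdhl. Hmgcs1 went from 271, 271 and 277 CPM to 475 and 470 CPM in FA and N2B27 and to 287 CPM in EB (0.76 ± 0.185 for the serum-free routes, adjusted p = 0.0058). The 4 that fell, where 11.2% of all genes fell, were Srebf1 and 3 of the 7 fatty acid genes, Fasn, Scd1 and Acsl3. The other 4 fatty acid genes did not pass the test.

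From SL the Scd2 level rose along every route. It went from 203 CPM at day 0 to 489 CPM in EB, 1420 CPM in FA and 1306 CPM in N2B27 at day 1, a log2 change of 1.36 ± 0.2188 in serum and of 2.80 ± 0.2158 in the serum-free routes. Fdps went from 74.5 CPM to 117 CPM in EB and to 263 and 265 CPM in FA and N2B27. For Fdps the change passed the test in the serum-free routes (1.88 ± 0.3036, adjusted p = 0.000868) and not in serum. All changes from SL share the single SL library of day 0, and day 1 in serum is 1 library for each starting medium.

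**Figure D4:**
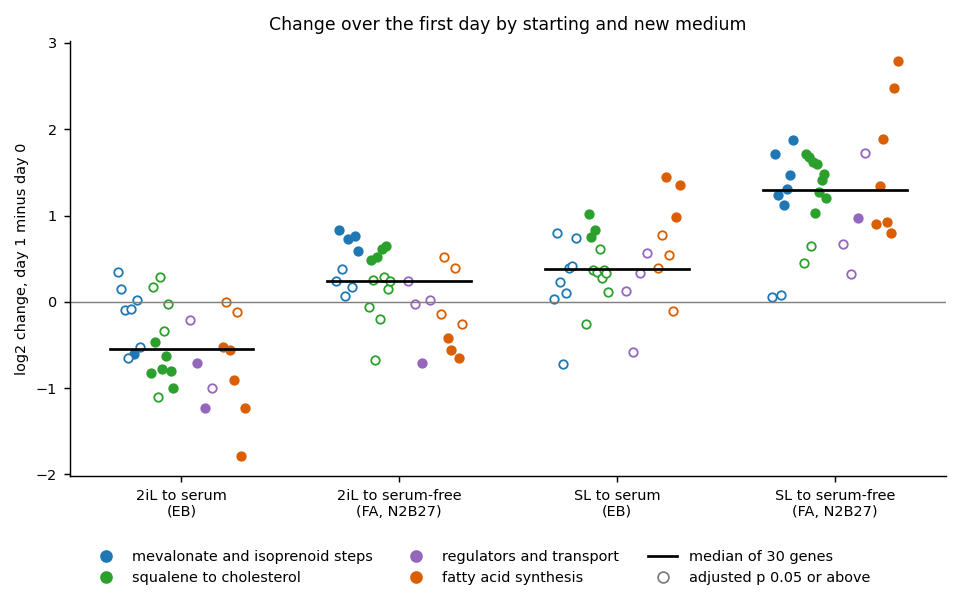
Log2 change from day 0 to day 1 of the 30 genes for each starting medium and destination, coloured by role, with open points at an adjusted p of 0.05 or above and a black line at the median of the 30 genes. The medians are -0.54 for 2iL into serum, 0.24 for 2iL into serum-free, 0.38 for SL into serum and 1.29 for SL into serum-free.

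Starting media were also compared at day 1, in comparisons added after the data were seen. Between starting media at day 1, 1 of the 30 genes was lower from 2iL in the serum-free routes (Lss, -0.57 ± 0.1503, where 4.15% of all genes were lower) and the median log2 difference was -0.16. In EB 1 gene was higher from 2iL (Sqle, 0.57 ± 0.1353, where 0.643% of all genes were higher) and the median was 0.01. The call of Sqle was lost without each of the 4 serum-free courses in turn, with library totals and with no filter, and that of Lss without the FA course from 2iL, the FA course from SL or the N2B27 course from SL. The change over the first day was lower from 2iL than from SL for 14 genes in the serum-free routes (2.69% of all genes) and for 9 genes in serum (1.26%), both counts resting on the SL library of day 0. The widest was Scd1, at -3.13 ± 0.2916 in the serum-free routes and -2.77 ± 0.3358 in serum. These values are the day 1 differences between starting media minus those of day 0. They largely restate the day 0 result with its sign turned.

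Genes around the 30 were counted in lists over the same comparison of EB with the serum-free routes, where 24.9% of all genes tested were higher and 24.3% lower. Of 10 other genes of sterol and fatty acid synthesis 8 were lower in EB and none higher (median log2 difference -0.51), led by Aacs, which activates acetoacetate (-1.17), and Fads1, a fatty acid desaturase (-1.01). Of the 4 genes of SREBP processing, Scap (-0.31) and the protease genes Mbtps1 (-0.21) and Mbtps2 (-0.18) were lower, and Insig2 was higher (0.17). These steps were small beside the -1.27 of Insig1. Among the 5 genes of sterol efflux and the LXR receptors, Abcg1, an exporter of sterols, was higher (1.47), as were Mylip (0.32), which promotes decay of lipoprotein receptors, and Nr1h2 (0.29), an LXR receptor. Abca1, a further exporter, was lower (-0.69), and Nr1h3 had a log2 difference of -0.05 that did not pass the test.

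Of 9 genes of lipid uptake and storage 2 were higher, Npc1, which exports cholesterol from lysosomes (0.54), and Soat1, which esterifies it (0.44), and 1 was lower, the lipoprotein receptor gene Lrp8 (-0.68). Of 12 genes of fatty acid oxidation 4 were higher and 1 lower, and Cpt1a, which passes acyl chains to mitochondria, had a log2 difference of 1.07 and Acadl, an acyl-CoA dehydrogenase, of 0.78. The list medians were -0.08 for uptake and 0.07 for oxidation, beside -0.01 for all genes, and the counts of these 2 lists, close to or below the shares over all genes, are given as a description of them.

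Markers of cell types and hypoxia genes were counted in the same comparison, beside the 24.9% of all genes that were higher and the 24.3% that were lower. Of 5 markers of formative and primed epiblast 4 were higher in EB and 1, Sox3, was lower (-0.51). Their sums were 316 to 3473 CPM in EB, 396 to 1490 CPM in FA and 172 to 983 CPM in N2B27. Dnmt3b made up much of them, with a median of 2010 CPM in EB and 547 CPM in the serum-free libraries. All 5 mesendoderm markers were higher in EB over days 1 to 7, and 4 of 6 neural markers were lower. Day by day, no mesendoderm marker passed the test on days 1 to 3. On day 5, 4 of the 5 were higher (9.03% of all genes), and on day 7 again 4 (3.85%). Of 9 markers of visceral and primitive endoderm 4 were higher and 1 lower in EB, with sums of 12.5 to 1984 CPM in EB, 12.7 to 878 CPM in FA and 17.0 to 2776 CPM in N2B27. Of 8 hypoxia genes 4 were higher and 2 lower, with sums of 701 to 1440 CPM in EB, 498 to 1058 CPM in FA and 449 to 1541 CPM in N2B27. The part of these groups in the differences of the 30 genes was not tested.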

How the data were processed

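RNA was ribosomal RNA-depleted and sequenced strand-specifically. Per the study's methods, the authors trimmed reads with TrimGalore, aligned them with TopHat2 to GRCm38/mm10 with Ensembl 82 genes, allowing 1 mismatch, and counted reads per gene with featureCounts, for which versions were not given in the sources used here. The deposited values are raw counts per gene. The 435 rows without a symbol, holding 0.000879% of all counts, were left out. CPM is the count divided by the library total of the rows kept. Tests used edgeR 4.0.16 (R 4.3.3) with TMM scaling, a filter on low counts, the quasi-likelihood test and Benjamini-Hochberg adjustment over all genes tested. The fits of days 1 to 7 held a term for each starting medium and day, as a block, and the fits of day 0 and of the first day held 1 term per group. A gene was called at an adjusted p below 0.05. The fit of the main comparison was tried on simulated counts that held no differences between starting media or days, and the other fits were not. The alternatives were DESeq2 1.42.0, library totals, no filter, no block and leaving out each course. Genes were named by role and by the largest differences within each list. The 30 genes, the lists and the tests were chosen with earlier results of these data known. Promoter windows came from RefSeq, and positions and summed exon lengths from the GENCODE annotation of GRCm38.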

Additional observations from a re-analysis of the deposited data

Results flagged for a closer look

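In sets of 4 serum-free libraries of 1 day, a library whose gap to its nearest neighbour took up nearly the whole range was marked as standing apart. Over 66 such tests on the genes described in detail, 2 libraries stood apart, and chance marks about 1 in 20. For Hmgcs1 it was the N2B27 library of day 2 from 2iL, at 668 CPM, and for Ebp the FA library of day 1.5 from SL, at 22.5 CPM. The EB gap of Cyp51 at days 1 to 2 differed between starting media by 0.50 on the log2 scale (0.496, 2iL minus SL). The EB gap of Sqle differed between days 5 and 7 and days 1 to 2 by -0.40 (-0.4031). The change from day 0 to day 1 differed between starting media for 14 genes in the serum-free routes and for 9 genes in serum, and in these genes it was lower from 2iL. This contrast contains the day 0 difference between starting media with its sign turned, so it is no separate result.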

How the results depend on the processing

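With DESeq2, library totals, no filter and no replicate block, the serum comparison over days 1 to 7 stayed within 1.5 times of its 29 lower genes, as did the counts at day 0. Of the settings tried, 149 counts stayed within that bound and 71 did not, and among single genes 440 values kept their side of the threshold. Among these values Ggps1 alone turned its sign, to -0.0506 with FA alone. Leaving out the EB course from SL left Acsl3 at -0.35 (adjusted p = 0.0524), and leaving out the N2B27 course from SL gave Ggps1 at 0.09 (adjusted p = 0.0441). Between FA and N2B27, the genes higher in FA numbered 8 with library totals and 2 without the replicate block (medium by day), against 4, and those lower numbered 5 with DESeq2 and 1 with library totals, against 3. At day 2 library totals gave 10 lower genes, against 18. The late minus early difference gave 2 lower genes with DESeq2 and 0 without the block, against 1. With library totals 1 gene was higher and 1 lower, beside 813 and 977 of all 16457 genes tested. Without the FA course from SL it was again 1 and 1, beside 1375 and 1672 of 16393. The difference between starting media gave 2 genes with DESeq2 and 0 with library totals. From 2iL into the serum-free routes 2 genes fell with library totals, against 4. At day 1, DESeq2 gave 2 genes lower from 2iL in the serum-free routes and 2 higher in serum, each against 1. Library totals and no filter each gave 1 in the serum-free routes and 0 in serum. The change in serum was lower from 2iL for 4 genes with library totals, against 9. The cause of these shifts was not tested.

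Leaving out each course in turn, with its day 0 library where it had one, gave 28 to 29 lower genes in the main comparison. It gave 1 to 6 genes higher and 1 to 7 lower in FA, with both lowest counts reached without the FA course from SL. In the fits by day without an EB course, fewer genes were lower over all genes tested as well. By day the counts were 6 to 16 (day 1), 5 to 20 (day 1.5), 5 to 14 (day 2), 10 to 21 (day 2.5), 13 to 29 (day 3), 15 to 26 (day 5) and 4 to 16 (day 7). The late difference of Sqle was lost without the EB course from 2iL (0 to 1), and the difference of Cyp51 without the N2B27 course from 2iL or the FA course from SL (0 to 1). The gap at days 1 to 2 held 27 to 29 genes from 2iL and 27 to 28 from SL, and day 0 held 15 to 18. Over the first day, 7 to 14 genes fell from 2iL into serum, lowest without the N2B27 course from SL. From 2iL into the serum-free routes 3 to 8 rose and 1 to 4 fell, lowest without the N2B27 and the FA course from 2iL. From SL, 3 to 5 rose in serum and 17 to 23 in the serum-free routes. At day 1 the counts were 0 to 1 in the serum-free routes and 0 in serum. The change was lower from 2iL for 7 to 16 genes in the serum-free routes, lowest without the FA course from SL, and for 4 in serum without each of the 4 serum-free courses in turn.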
